A study of Mus musculus with 9 samples.

Results

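The monocyte lineage genes described here are Ly6c2, Ccr2, Fcgr3, Fcgr1, Cd14, Lyz2, F13a1 and Irf8. These 8 genes were taken by symbol from the 56262 genes counted in each library, and all 8 were among the 16595 genes that passed the filter on low counts, Fcgr1 through the treated groups only. RNA was sequenced from cells of wild-type C57BL/6 mice that the labels call LT-HSCs, stem cells able to maintain the blood for life. Their sort is given as Lin-, Sca1+, c-Kit+, CD150+ and "C48-". Mice labelled 5-FU+FMT received 250 mg/kg of 5-FU, 5-fluorouracil, a pyrimidine analogue toxic to cycling cells, and then FMT, an agent not spelled out in the labels, intravenously at 5 mg/kg on days 1, 4 and 7. Mice labelled 5-FU+Saline received the same dose of 5-FU and then saline, called PBS in the study's text, on a schedule that is not stated. Control mice were untreated, and cells of the treated mice were taken on day 8. Each group holds 3 libraries, and the labels state neither whether a library stands for 1 mouse or a pool nor the sex of the mice, so that p-values measure the spread between these libraries only, which may be technical.

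Monocytes are made in the bone marrow from stem cells by way of granulocyte and monocyte progenitors and monocyte and dendritic progenitors. The transcription factor IRF8, working with PU.1, is needed for monocytes and dendritic cells and restrains the neutrophil path. Mature classical monocytes of the mouse carry high Ly6C and CCR2, and they bear Fc receptors and CD14 and make lysozyme and the A subunit of factor XIII. LT-HSCs are not monocytes, and low RNA of such genes in stem and progenitor fractions is often read as myeloid priming. In bulk RNA such as this, fewer cells of a type and less RNA per cell cannot be told apart.

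RefSeq promoters on GRCm38.p6 were matched by symbol for 7 of the 8 genes. The 250 bases before the start of the first RefSeq entry are shown for Ly6c2, Fcgr3 and F13a1, which moved together in these data, and for Fcgr1 and Irf8, which did not move with these or with each other. Each runs 5′ to 3′ on the strand of its gene, with capitals for matches to GAGGAA (PU.1-like), TTGCNNAA (C/EBP-like), TTCNNNGAA (the gamma-activated site, GAS-like) or an IRF-like motif (GAAA, any 2 bases, GAAA), searched on both strands.
Ly6c2 promoter window (GRCm38.p6, chr15:75111972-75112221, minus strand): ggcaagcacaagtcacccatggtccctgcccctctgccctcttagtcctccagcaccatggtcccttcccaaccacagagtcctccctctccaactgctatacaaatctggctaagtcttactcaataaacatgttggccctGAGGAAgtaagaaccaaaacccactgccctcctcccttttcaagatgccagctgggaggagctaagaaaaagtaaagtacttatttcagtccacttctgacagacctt
Fcgr3 promoter window (GRCm38.p6, chr1:171059404-171059653, minus strand): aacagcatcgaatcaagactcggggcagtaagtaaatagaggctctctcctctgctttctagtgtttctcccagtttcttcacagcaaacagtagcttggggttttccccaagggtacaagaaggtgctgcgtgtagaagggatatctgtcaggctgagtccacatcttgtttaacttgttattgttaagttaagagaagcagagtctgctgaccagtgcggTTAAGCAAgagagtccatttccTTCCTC
F13a1 promoter window (GRCm38.p6, chr13:37050245-37050494, minus strand): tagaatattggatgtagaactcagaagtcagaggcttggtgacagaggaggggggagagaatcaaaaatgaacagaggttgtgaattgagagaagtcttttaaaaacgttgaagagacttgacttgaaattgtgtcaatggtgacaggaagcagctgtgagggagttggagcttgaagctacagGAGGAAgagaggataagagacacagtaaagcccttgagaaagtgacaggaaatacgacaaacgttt
Fcgr1 promoter window (GRCm38.p6, chr3:96293970-96294219, minus strand): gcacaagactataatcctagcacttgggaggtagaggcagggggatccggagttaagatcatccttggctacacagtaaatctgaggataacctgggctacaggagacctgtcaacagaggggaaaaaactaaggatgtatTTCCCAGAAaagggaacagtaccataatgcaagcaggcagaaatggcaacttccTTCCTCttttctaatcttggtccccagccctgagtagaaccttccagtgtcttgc
Irf8 promoter window (GRCm38.p6, chr8:120736108-120736357, plus strand): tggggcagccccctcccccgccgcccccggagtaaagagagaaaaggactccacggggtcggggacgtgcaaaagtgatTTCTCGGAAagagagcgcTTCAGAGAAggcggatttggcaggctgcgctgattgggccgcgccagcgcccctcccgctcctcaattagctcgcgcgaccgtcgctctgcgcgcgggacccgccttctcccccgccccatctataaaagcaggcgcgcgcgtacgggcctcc
The PU.1-like letters were found in 4 of the 7 windows (Ly6c2, Fcgr3, F13a1 and Fcgr1), against 23.1% of the windows of 27025 genes. The Ly6c2 match lies 108 to 103 bases before the start and the F13a1 match 66 to 61 bases before it. Fcgr3 has TTCCTC, the same letters on the other strand, in the last 6 bases, and a C/EBP-like match 28 to 21 bases before the start. A C/EBP-like match was found in 1 of the 7 windows and in 9.55% of all windows. GAS-like letters were found in 2 of the 7 windows, those of Fcgr1 and Irf8, and in 7.18% of all windows. Irf8 of the mouse and FCGR1A, the human counterpart of Fcgr1, are known to be induced by interferon gamma through such elements. The Fcgr1 match lies 109 to 101 bases before the start, and Irf8 has matches at 171 to 163 and 153 to 145 bases. No window of the 7 held the IRF-like letters, which 3.04% of all windows hold. No match overlaps another in the sequences shown. The Fcgr3 window lies inside the span counted for that gene, whose farthest listed start is upstream of it. A match is a run of letters and was not tested as a binding site.

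Total counts were between 11098031 and 19270976 per library, and 22813 to 24237 genes had a count. The 3 groups differed over the whole transcriptome, with a biological coefficient of variation of 3.74% between libraries of a group. Of the sort markers, Kit and Ly6a (Sca1) were present in every group. Slamf1 (CD150) averaged 24.4 ± 1.76 CPM (counts per 1000000, scaled by TMM) in 5-FU+FMT, 34.5 ± 2.06 in 5-FU+Saline and 8.35 ± 1.16 in Control, while Cd48 averaged 46.7 ± 1.53, 53.7 ± 0.557 and 30.7 ± 1.27 CPM in the same order (SD, n = 3 each). RNA of Cd48, which a CD48-negative sort should hold little of, was thus present in all 3 groups. Xist, made from the inactive X chromosome of females, averaged 682 ± 19.8 CPM in 5-FU+FMT, 1201 ± 20.2 in 5-FU+Saline and 0.870 ± 0.421 in Control, counted without regard to strand. Ddx3y of the Y chromosome averaged 100.04 ± 2.28, 38.9 ± 2.58 and 168 ± 4.23 CPM in the same order. Every treated library held RNA of both genes. Xist ranged from 659 to 695 CPM and Ddx3y from 98.0 to 102 CPM over the 5-FU+FMT libraries. Over the 5-FU+Saline libraries the ranges were 1183 to 1223 CPM for Xist and 37.1 to 41.9 CPM for Ddx3y. Whether a treated library mixes cells of male and female mice was not tested. These sex-linked RNAs move with the groups, so that treatment and sex cannot be told apart in any comparison given here.

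The course of the 8 genes was split. In 5-FU+Saline against Control, Ly6c2, Fcgr3, F13a1 and Cd14 fell and Ccr2, Fcgr1 and Lyz2 rose, while Irf8 did not pass the test. The counts of 3 higher and 4 lower stand beside 32.8% higher and 32.7% lower over all tested genes, and the median log2 fold change of the 8 was -0.87, against -0.02 over all tested genes. In 5-FU+FMT against 5-FU+Saline, Ly6c2, Fcgr3 and F13a1 rose, Ccr2 fell, and the other 4 did not pass. These 3 higher and 1 lower stand beside 17.7% higher and 19.2% lower over all tested genes, and the median of the 8 was 0.34, against 0.01. In 5-FU+FMT against Control, Ccr2, Fcgr1 and Lyz2 rose, Ly6c2, Fcgr3 and F13a1 fell, and Cd14 and Irf8 did not pass. Over all tested genes 25.0% were higher and 21.6% lower in that comparison, and the median of the 8 was -0.52, against -0.01. The 3 comparisons share libraries, so their values are set side by side below and not counted as separate support. Each test is edgeR's quasi-likelihood test with Benjamini-Hochberg adjustment over all tested genes, and a gene is called at an adjusted p under 0.05.

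**Figure D1:**
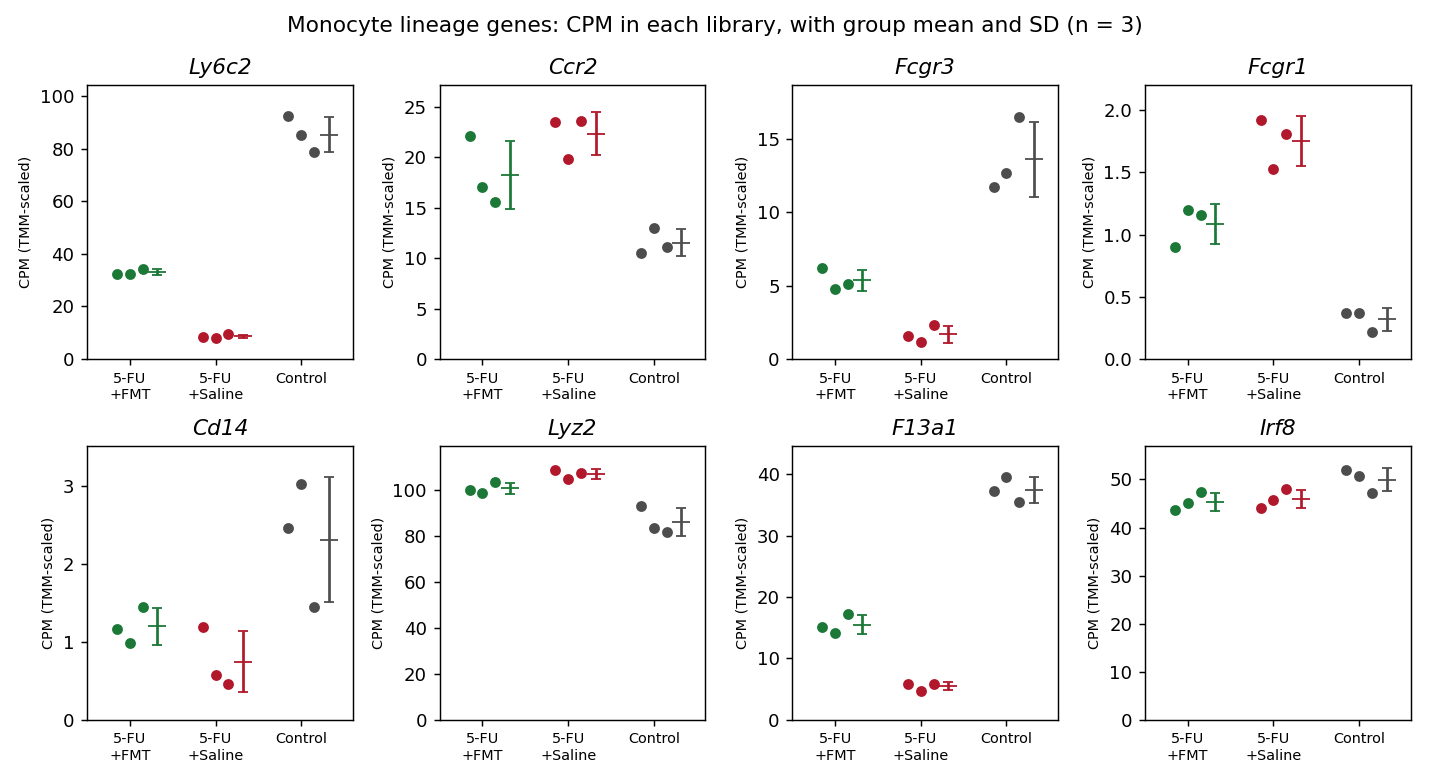
Level of each of the 8 genes in every library (points), with the group mean and SD (n = 3), in TMM-scaled CPM on axes that start at 0. Ly6c2, Fcgr3 and F13a1 have their 5-FU+FMT libraries between those of 5-FU+Saline and Control, and Irf8 has overlapping groups.

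Ly6c2 encodes the Ly6C surface antigen by which classical monocytes are sorted. It stood at 32.5, 32.2 and 34.3 CPM in the 5-FU+FMT libraries, at 8.40, 8.02 and 9.35 CPM in 5-FU+Saline and at 92.4, 85.2 and 78.8 CPM in Control. The 3 groups do not overlap, with 5-FU+Saline lowest and Control highest. In 5-FU+Saline against Control Ly6c2 was 9.87-fold lower (log2 fold change -3.30, SE 0.0815, adjusted p = 2.24e-49), the largest change among the 8 genes in that comparison. It was 3.82-fold higher in 5-FU+FMT than in 5-FU+Saline (log2 1.93, SE 0.0901, adjusted p = 6.31e-31), and 2.58-fold lower than in Control (log2 -1.37, SE 0.0679, adjusted p = 1.69e-29). In the GENCODE M21 transcripts, 33.0% of the 50-base runs of Ly6c2 also occur in another gene, nearly all in Ly6c1, and 5.79% of its 150-base runs are shared with Ly6c1. The counted alignments are named unique, so that pairs that fit both genes may be missing from the counts of both. How such pairs were handled is not stated further in the sources used here. Ly6c1 itself, a close relative also found on endothelium and lymphocytes, averaged 1.02 ± 0.352 CPM in 5-FU+FMT, 1.66 ± 0.635 in 5-FU+Saline and 0.663 ± 0.360 in Control. Its fitted log2 fold change in 5-FU+Saline against Control was 1.25 (SE 0.442, adjusted p = 0.0106), opposite in sign to that of Ly6c2.

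Of the 12 listed genes of the Ly6 family, 6 were tested. After 5-FU and saline, relative to Control, 5 of the 6 rose, among them Ly6d (log2 0.80), an early lymphoid marker, and Ly6a (log2 0.27), and Ly6c2 alone fell. One of the 5, Gpihbp1, reached the filter's minimum of 0.661 CPM in 5-FU+Saline libraries only, so that it could be tested only as a riser there. With 5-FU+FMT set against 5-FU+Saline, Ly6c2 alone rose and 4 fell, including Ly6d (log2 -0.30), Ly6e (log2 -0.15) and Ly6a (log2 -0.13), and the median of the 6 was -0.23. Gpihbp1 (log2 -2.89) was also among the 4, and for the same reason it could be tested only as a faller there. Against Control, 5-FU+FMT had 2 higher, 1 lower and 3 that did not pass. Ly6g, the neutrophil antigen, had no count in 5-FU+FMT or in Control.

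Ccr2 encodes the chemokine receptor by which monocytes leave the marrow. Its levels were 22.1, 17.1 and 15.6 CPM in 5-FU+FMT, 23.5, 19.9 and 23.5 CPM in 5-FU+Saline and 10.5, 13.02 and 11.1 CPM in Control. Every treated library stood above every Control library, and 5-FU+FMT replicate 1 lay within the range of 5-FU+Saline. Ccr2 was 1.95-fold higher in 5-FU+Saline than in Control (log2 0.96, SE 0.113, adjusted p = 6.60e-12) and 1.60-fold higher in 5-FU+FMT than in Control (log2 0.68, SE 0.117, adjusted p = 9.73e-07). Its fall in 5-FU+FMT against 5-FU+Saline was 1.22-fold (log2 -0.29, SE 0.105, adjusted p = 0.0242). That call was lost in DESeq2 (adjusted p = 0.0554) and without any of 4 single libraries: 5-FU+Saline replicate 1 (adjusted p = 0.102) or 3 (0.114), or 5-FU+FMT replicate 2 (0.108) or 3 (0.226), each by edgeR. Ccr2 thus went the other way from Ly6c2 in all 3 comparisons. Per kb of exon, the ratio of Ly6c2 to Ccr2 was 4.57 ± 0.900 in 5-FU+FMT, 0.952 ± 0.0628 in 5-FU+Saline and 18.4 ± 2.88 in Control (SD, n = 3 each), a description chosen with the values known.

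Of the 5 listed CCR2 ligands, 4 have a row in the tables and only Ccl2 passed the filter. It averaged 0.969 ± 0.421 CPM in 5-FU+FMT, 0.576 ± 0.177 in 5-FU+Saline and 1.03 ± 0.380 in Control, and it passed the test in no comparison. Ccl12 had no count in any group.

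Fcgr3 encodes the low-affinity Fc gamma receptor III, which binds IgG complexes and is used, with CD16/32 antibodies, to gate granulocyte and monocyte progenitors. It stood at 6.17, 4.78 and 5.13 CPM in 5-FU+FMT, at 1.59, 1.15 and 2.32 CPM in 5-FU+Saline and at 11.7, 12.7 and 16.5 CPM in Control. The groups do not overlap and have the order seen for Ly6c2. Fcgr3 was 7.96-fold lower in 5-FU+Saline than in Control (log2 -2.99, SE 0.194, adjusted p = 1.89e-23). It was 3.11-fold higher in 5-FU+FMT than in 5-FU+Saline (log2 1.64, SE 0.217, adjusted p = 1.68e-09) and 2.56-fold lower than in Control (log2 -1.36, SE 0.166, adjusted p = 8.24e-11). Its transcript shares 12.8% of its 50-base runs, and none of its 150-base runs, with Fcgr2b, the inhibitory Fc gamma receptor. Fcgr2b averaged 14.0 ± 1.06 CPM in 5-FU+FMT, 12.5 ± 1.69 in 5-FU+Saline and 17.2 ± 1.98 in Control.

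Fcgr1 encodes the high-affinity Fc gamma receptor I, CD64, a marker of monocytes and macrophages. It was the least abundant of the 8 per kb of exon in 5-FU+FMT and in Control. Counts were 14, 17 and 16 in 5-FU+FMT, 29, 24 and 35 in 5-FU+Saline and 5, 4 and 4 in Control. As CPM these are 0.900, 1.19 and 1.16 in 5-FU+FMT, 1.92, 1.53 and 1.81 in 5-FU+Saline and 0.373, 0.367 and 0.213 in Control. Every treated library was above every Control library, and the 5-FU+Saline libraries were highest. The fitted change was 5.61-fold higher in 5-FU+Saline than in Control (log2 2.49, SE 0.494, adjusted p = 8.85e-06) and 3.47-fold higher in 5-FU+FMT than in Control (log2 1.80, SE 0.529, adjusted p = 0.00341). Relative to 5-FU+Saline, in 5-FU+FMT the groups do not overlap, but the log2 fold change of -0.69 did not pass (SE 0.400, 95% interval from -1.48 to 0.0910, adjusted p = 0.176). No Control library reached the filter's minimum of 0.661 CPM for Fcgr1, so that it could be tested only because it was higher in the treated groups. Per kb of exon, Fcgr3 exceeded Fcgr1 by a ratio of 7.60 ± 2.30 in 5-FU+FMT, 1.42 ± 0.431 in 5-FU+Saline and 71.3 ± 38.4 in Control (SD, n = 3 each).

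Of the 15 genes listed for the Fc gamma receptor complex and its signalling, which include Fcgr1 and Fcgr3, 14 were tested. In 5-FU+Saline against Control 5 rose and 8 fell, with a median of -0.19. Besides Fcgr3, the fallers included Fcer1g (log2 -0.99), the shared signalling chain of these receptors, and Fcgr2b (log2 -0.46). The risers included the kinases Fgr (log2 0.91), Btk (log2 0.43) and Lyn (log2 0.36). With 5-FU+FMT set against 5-FU+Saline, 4 rose, among them Fcer1g (log2 0.41, adjusted p = 0.0145), 2 fell, Btk (log2 -0.20) and Lyn (log2 -0.13), and 8 did not pass. The number lower was 4 with limma-voom, RLE factors or the replicate block, and 1 with upper-quartile factors, no scaling factors, no filter or the stricter filter. A total of 3 rose, 7 fell and 4 did not pass in 5-FU+FMT against Control.

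Cd14 encodes the coreceptor that hands lipopolysaccharide to TLR4. Its counts were low, at 18, 14 and 20 in 5-FU+FMT, 18, 9 and 9 in 5-FU+Saline and 33, 33 and 27 in Control. The levels were 1.16, 0.983 and 1.44 CPM in 5-FU+FMT, 1.19, 0.573 and 0.465 CPM in 5-FU+Saline and 2.46, 3.03 and 1.44 CPM in Control. The 5-FU+Saline libraries were all below the Control libraries, and the 5-FU+FMT libraries overlapped both other groups. Cd14 was 3.08-fold lower in 5-FU+Saline than in Control (log2 -1.62, SE 0.414, adjusted p = 0.000444). Relative to 5-FU+Saline, in 5-FU+FMT the log2 fold change was 0.71 (SE 0.442, interval from -0.157 to 1.57, adjusted p = 0.213). Against Control, the value for 5-FU+FMT was -0.91 (SE 0.394, interval from -1.69 to -0.139, adjusted p = 0.0504), just outside the threshold. This last value passed under several other settings, for example without Control replicate 3, the lowest Control library (log2 -1.19, adjusted p = 0.0183).

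All 18 listed genes of CD14 and TLR4 signalling, Cd14 included, were tested. After 5-FU and saline, relative to Control, 3 rose, 8 fell and 7 did not pass, with a median of -0.14. Tlr4 itself fell (log2 -0.39, adjusted p = 0.00538), as did Lbp (log2 -0.96), the plasma protein that loads CD14, and Nfkbia (log2 -0.65), a target and inhibitor of NF-kB. The risers were the adaptor Myd88 (log2 0.44), Traf6 (log2 0.25) and Il1b (log2 1.86, at under 1 CPM in every group mean and under the filter's minimum in every Control library). Ly96, the MD-2 partner of TLR4, had a log2 fold change of -0.04 that did not pass. With 5-FU+FMT set against 5-FU+Saline, Lbp (log2 0.55), Nfkbia (log2 0.24) and Irak4 (log2 0.25) rose, Traf6 (log2 -0.25) and Myd88 (log2 -0.21) fell, and 13 did not pass. Of these genes 2 rose, 3 fell and 13 did not pass in 5-FU+FMT against Control.

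Lyz2 encodes lysozyme M, made by monocytes, macrophages and neutrophils. Per kb of the counted exon length it had the highest level of the 8 in every group, a rank that depends on that length. In plain CPM the Control means were 86.0 for Lyz2 and 85.5 for Ly6c2. Per base of the longest coding transcript, 1316 bases for Lyz2 and 822 for Ly6c2, Ly6c2 would stand above Lyz2 in Control. Lyz2 stood at 99.9, 98.6 and 103 CPM in 5-FU+FMT, at 109, 105 and 107 CPM in 5-FU+Saline and at 92.9, 83.5 and 81.7 CPM in Control. The groups do not overlap, yet they differ little. Lyz2 was 1.24-fold higher in 5-FU+Saline than in Control (log2 0.31, SE 0.0465, adjusted p = 1.13e-08) and 1.17-fold higher in 5-FU+FMT than in Control (log2 0.23, SE 0.0474, adjusted p = 3.78e-05). Relative to 5-FU+Saline, in 5-FU+FMT its log2 fold change was -0.09 (SE 0.0455, interval from -0.176 to 0.00265, adjusted p = 0.132). Lyz1, which shares 15.4% of the 50-base runs of Lyz2, was listed at no count in 5-FU+FMT and Control and at 0.0441 CPM in 5-FU+Saline. The ratio of Ly6c2 to Lyz2 per kb of exon was 0.158 ± 0.00176 in 5-FU+FMT, 0.0386 ± 0.00282 in 5-FU+Saline and 0.477 ± 0.0132 in Control (SD, n = 3 each).

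F13a1 encodes the A subunit of coagulation factor XIII, the transglutaminase that crosslinks fibrin, and it marks monocytes and their progenitors as well as megakaryocytes. It stood at 15.2, 14.1 and 17.2 CPM in 5-FU+FMT, at 5.88, 4.71 and 5.83 CPM in 5-FU+Saline and at 37.2, 39.6 and 35.5 CPM in Control. The groups do not overlap and have the order of Ly6c2 and Fcgr3. F13a1 was 6.79-fold lower in 5-FU+Saline than in Control (log2 -2.76, SE 0.111, adjusted p = 1.33e-35). It was 2.82-fold higher in 5-FU+FMT than in 5-FU+Saline (log2 1.49, SE 0.122, adjusted p = 1.37e-17) and 2.41-fold lower than in Control (log2 -1.27, SE 0.0971, adjusted p = 2.97e-19). An opposite-strand gene, Gm30489, overlaps 74 bases (1.10%) of its counted exons, the only exon overlap among the 8.

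Of the 9 listed relatives in coagulation and the lysozyme family, F13a1 and Lyz2 included, 5 were tested. Besides these, F10, coagulation factor X, moved as F13a1 did, with log2 fold changes of -3.05 in 5-FU+Saline against Control and 2.36 in 5-FU+FMT against 5-FU+Saline, at means of 1.54 ± 0.290 CPM in 5-FU+FMT, 0.275 ± 0.261 in 5-FU+Saline, where no library reached the filter's minimum, and 2.50 ± 0.381 in Control. F5, factor V, went the other way, with log2 1.19 and -0.41 in these comparisons. F13b, the carrier subunit of factor XIII, did not pass the filter.

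Irf8 encodes the transcription factor that specifies the monocyte and dendritic lineages. It stood at 43.6, 45.0 and 47.4 CPM in 5-FU+FMT, at 44.2, 45.7 and 48.0 CPM in 5-FU+Saline and at 51.9, 50.7 and 47.3 CPM in Control. Control replicate 3 lies within the range of the treated libraries, and the treated groups cover nearly the same range. The log2 fold change was -0.11 in 5-FU+Saline against Control (SE 0.0639, interval from -0.239 to 0.0113, adjusted p = 0.110). It was -0.02 in 5-FU+FMT against 5-FU+Saline (SE 0.0643, interval from -0.149 to 0.103, adjusted p = 0.817), and its sign turned without 5-FU+Saline replicate 3 or 5-FU+FMT replicate 1 (log2 0.0105 and 0.0040). In 5-FU+FMT against Control it was -0.14 (SE 0.0650, interval from -0.264 to -0.00949, adjusted p = 0.0772). With upper-quartile scaling, which moves the median of all genes by -0.08 and -0.07 in the comparisons with Control, both passed as small falls (log2 -0.19 and -0.20, adjusted p = 0.00718 and 0.00753). Per kb of exon, the ratio of F13a1 to Irf8 was 0.358 ± 0.0264 in 5-FU+FMT, 0.125 ± 0.0159 in 5-FU+Saline and 0.785 ± 0.0336 in Control (SD, n = 3 each).

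**Figure D2:**
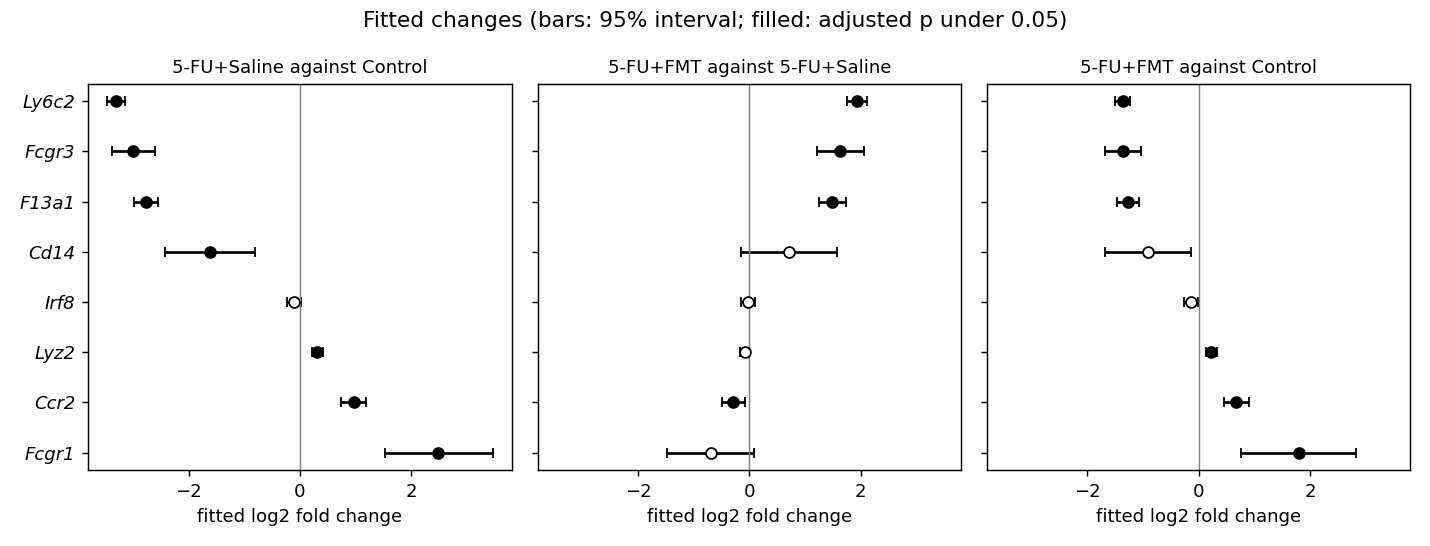
Fitted log2 fold changes of the 8 genes in the 3 comparisons (points, filled where the adjusted p is under 0.05), with bars of the 95% interval. Ly6c2, Fcgr3 and F13a1 lie left of 0 in both comparisons with Control and right of 0 in 5-FU+FMT against 5-FU+Saline, while Ccr2, Lyz2 and Fcgr1 lie on the opposite side each time.

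All 17 listed transcription factors of the lineage, Irf8 included, were tested. In 5-FU+Saline against Control 3 rose and 11 fell, with a median of -0.28. The immediate-early factors Egr1 (log2 -3.31) and Nr4a1 (log2 -2.03), a factor needed for non-classical monocytes, fell with Klf4 (log2 -3.09), a factor of classical monocytes. Cebpa, needed for granulocyte and monocyte progenitors, fell by 2.196 on the log2 scale, and Spi1, which encodes PU.1, fell by 0.28. Bach2, a repressor that favours lymphoid fate, rose (log2 1.09). With 5-FU+FMT set against 5-FU+Saline, 8 rose, among them Egr1 (log2 1.94), Klf4 (log2 1.72), Cebpa (log2 1.23), Nr4a1 (log2 1.03) and Spi1 (log2 0.19), and Bach2 (log2 -0.35) and Irf4 (log2 -0.30) were among those that fell. Against Control, 5-FU+FMT had 2 higher, 9 lower and 6 that did not pass, and Spi1 had a log2 fold change of -0.09 that did not pass (adjusted p = 0.104).

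Of the 15 listed partners and reported targets of IRF8, 14 were tested. After 5-FU and saline, relative to Control, 4 rose, 5 fell and 5 did not pass, with a median of -0.02, equal at this precision to that of all tested genes. Bcl6, a repressor, fell (log2 -1.92), and Batf (log2 0.49) and Id2 (log2 0.57) rose. Cybb, the catalytic subunit of the phagocyte oxidase, had a log2 fold change of -0.01 and Cst3, cystatin C, one of 0.05, and neither passed. Relative to 5-FU+Saline, in 5-FU+FMT 5 rose, with Bcl6 (log2 0.96) among them, and Irf4 alone fell. A total of 3 rose, 5 fell and 6 did not pass in 5-FU+FMT against Control.

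Receptors for the growth factors and cytokines of early myeloid cells mostly fell in 5-FU+Saline. Of 12 tested, 10 fell and 1 rose in 5-FU+Saline against Control, with a median of -1.11. Flt3, the receptor of lymphoid-primed and dendritic progenitors, fell by 3.04 on the log2 scale. Il1r1, the interleukin-1 receptor, fell by 2.05, and Csf1r, the M-CSF receptor of monocytes, fell by 1.80. Ifngr2, a chain of the interferon gamma receptor, rose (log2 1.21), while its partner Ifngr1 fell by 0.65. With 5-FU+FMT set against 5-FU+Saline, 9 rose and 1 fell, with a median of 0.55, and Flt3 (log2 1.98), Il1r1 (log2 1.27) and Csf1r (log2 0.83) were among the risers. Csf1r averaged 7.80 ± 0.899 CPM in 5-FU+FMT, 4.40 ± 0.720 in 5-FU+Saline and 15.3 ± 2.81 in Control. Of these genes 1 rose, 9 fell and 2 did not pass in 5-FU+FMT against Control.

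The other surface and secreted markers of classical monocytes moved in both directions. Of 20 listed, 19 were tested, and in 5-FU+Saline against Control 7 rose and 7 fell, with a median of 0.03. The integrin Itgam (CD11b) fell by 2.07 on the log2 scale and Plac8 by 1.05. Fn1, fibronectin, rose (log2 2.04), and so did Chil3 (log2 1.94), a marker of neutrophil-like monocytes in the mouse, and Clec4e (log2 1.19), a receptor for mycobacterial glycolipid. Relative to 5-FU+Saline, in 5-FU+FMT 4 rose, with Itgam (log2 1.70) and Plac8 (log2 0.44) among them, 3 fell, Fn1 (log2 -0.79), Ifitm3 (log2 -0.12) and Psap (log2 -0.09), and 12 did not pass. Against Control, 5-FU+FMT had 6 higher, 4 lower and 9 that did not pass. Of 11 listed markers of non-classical monocytes, 9 were tested, with 4 higher and 3 lower in 5-FU+Saline against Control and a median of -0.05. Cd36, a scavenger receptor, rose (log2 2.10) and Nr4a1 fell, and Cx3cr1 had 0.983 ± 0.101 CPM in 5-FU+FMT, 0.803 ± 0.155 in 5-FU+Saline and 1.45 ± 0.552 in Control and passed in no comparison. The 9 counted 3 higher and 2 lower in 5-FU+FMT against 5-FU+Saline and 2 higher and 2 lower in 5-FU+FMT against Control. Among the 9, Treml4 reached the filter's minimum of 0.661 CPM in 5-FU+Saline libraries only. Its rise in 5-FU+Saline against Control (log2 1.575) and its fall in 5-FU+FMT against 5-FU+Saline (log2 -2.147) were thus the only directions open to it.

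**Figure D3:**
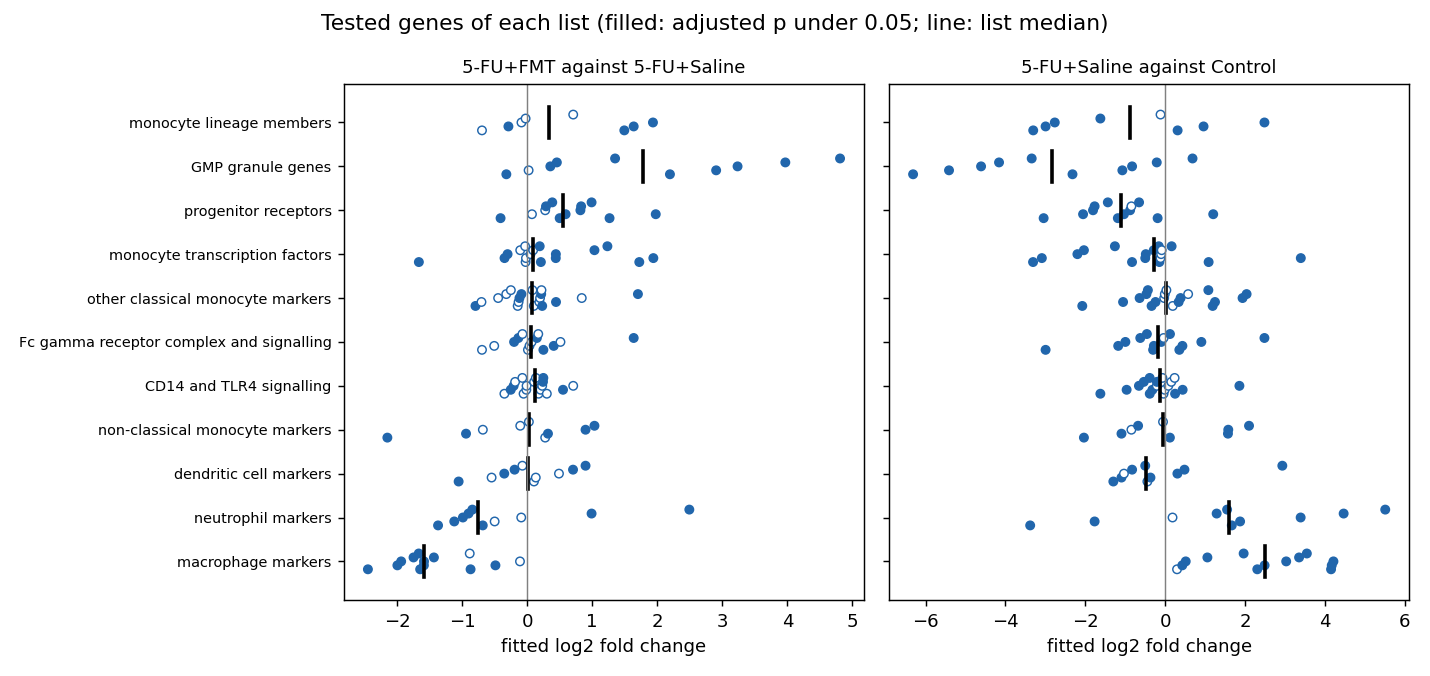
Fitted log2 fold changes of the tested genes of the members' list and 10 others (points, filled where the adjusted p is under 0.05, with a line at each list's median). Granule genes lie mostly left of 0 in 5-FU+Saline against Control and right of 0 in 5-FU+FMT against 5-FU+Saline, while macrophage markers lie on the opposite sides.

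Markers of other cell types that express the 8 genes moved with the groups. Of 10 granule genes of granulocyte and monocyte progenitors, 9 fell and 1 rose in 5-FU+Saline against Control (median -2.83), and 8 rose and 1 fell in 5-FU+FMT against 5-FU+Saline (median 1.77). Elane, neutrophil elastase, averaged 140 ± 11.8 CPM in 5-FU+FMT, 5.02 ± 0.746 in 5-FU+Saline and 397 ± 5.72 in Control, and Mpo, myeloperoxidase, averaged 469 ± 27.9, 29.9 ± 1.14 and 1277 ± 0.836 CPM in the same order. The summed level of the 10 was 2078 to 2187 CPM in 5-FU+FMT, 1345 to 1367 in 5-FU+Saline and 3604 to 3679 in Control. Calr, an endoplasmic reticulum chaperone, and Igfbp4, a binding protein of insulin-like growth factors, made 50.3% of that sum in 5-FU+FMT, 83.3% in 5-FU+Saline and 30.4% in Control. Without them the other 8 summed to 1003 to 1122 CPM in 5-FU+FMT, 218 to 231 in 5-FU+Saline and 2517 to 2556 in Control. Ly6c2, Fcgr3 and F13a1 have this order of groups, and the part of such progenitors in their changes was not tested.

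Macrophage markers had the opposite order. Of 13 tested, 12 rose and none fell in 5-FU+Saline against Control (median 2.49), and 11 fell and none rose in 5-FU+FMT against 5-FU+Saline (median -1.59). C1qa, a chain of complement C1q, averaged 2.04 ± 0.207 CPM in 5-FU+FMT, 6.89 ± 1.27 in 5-FU+Saline and 0.377 ± 0.0801 in Control, and the mannose receptor Mrc1 averaged 3.74 ± 0.604, 11.9 ± 1.44 and 0.684 ± 0.318 CPM in the same order. The sum over the 14 listed markers was 70.0 to 71.7 CPM in 5-FU+FMT, 136 to 140 in 5-FU+Saline and 50.2 to 53.8 in Control, where 9 of the 14 averaged under 1 CPM and Timd4 had no count. In no Control library did C1qa, C1qb, Siglec1 or Cd5l reach the filter's minimum, so that these 4 of the 13 were tested by way of the treated groups. Fcgr1, Ccr2 and Lyz2 have this order of groups, and the part of macrophages in their changes was not tested. The split was also seen in neutrophil markers, whose late granule genes Ltf (log2 5.51) and Ngp (log2 3.40) rose and whose early factor Cebpe fell (log2 -3.38) in 5-FU+Saline against Control. Of 10 tested there, 7 rose and 2 fell, and in 5-FU+FMT against 5-FU+Saline 2 rose and 6 fell. Of the 10, Ltf, Mmp9 and Cxcr2 reached the filter's minimum in no Control library. The listed neutrophil markers summed to 180 to 191 CPM in 5-FU+FMT, 123 to 130 in 5-FU+Saline and 278 to 286 in Control, and Csf3r, the G-CSF receptor, made most of that. Without Csf3r the sum was 27.7 to 32.7 CPM in 5-FU+FMT, 44.1 to 53.2 in 5-FU+Saline and 14.7 to 20.1 in Control, which is the opposite order. Dendritic markers, 10 tested, counted 3 higher and 5 lower in 5-FU+Saline against Control and 2 higher and 3 lower in 5-FU+FMT against 5-FU+Saline. They summed to 283 to 294 CPM in 5-FU+FMT, 341 to 343 in 5-FU+Saline and 287 to 310 in Control. Dntt made 51.7%, 56.0% and 51.6% of that sum in the same order. Without Dntt the sum was 135 to 146 CPM in 5-FU+FMT, 148 to 155 in 5-FU+Saline and 139 to 150 in Control, where the last groups overlap.

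All 13 listed B cell markers rose in 5-FU+Saline against Control and fell in 5-FU+FMT against 5-FU+Saline, and they summed to 520 to 572 CPM in 5-FU+FMT, 1097 to 1111 in 5-FU+Saline and 80.7 to 87.0 in Control, with 6 of the 13 under 1 CPM in Control. Stromal and endothelial markers, 11 tested, had 9 higher and 1 lower in 5-FU+Saline against Control. They summed to 160 to 171 CPM in 5-FU+FMT, 322 to 336 in 5-FU+Saline and 123 to 131 in Control, where Col3a1 had no count. Pecam1 made 53.0%, 23.0% and 77.7% of that sum in the same order. Without Pecam1 the sum was 75.7 to 79.5 CPM in 5-FU+FMT, 248 to 257 in 5-FU+Saline and 27.6 to 29.6 in Control. In 5-FU+Saline against Control, erythroid markers (8 tested) had 7 lower and 1 higher, and mast cell and basophil markers (8 tested) had 6 lower and 2 higher. In 5-FU+FMT against 5-FU+Saline the erythroid ones had 5 higher and 1 lower, and the others 6 higher and 0 lower. Without Tfrc the erythroid sum was 158 to 163 CPM in 5-FU+FMT, 48.7 to 55.0 in 5-FU+Saline and 330 to 335 in Control. Without Gata2 the mast cell and basophil sum was 58.2 to 61.2, 18.8 to 20.7 and 87.6 to 89.6 CPM. Both thus have the group order of the granule genes. T and NK cell markers (8 tested) had 5 higher and 2 lower in 5-FU+Saline against Control. Their sums were 36.7 to 42.8 CPM in 5-FU+FMT, 34.8 to 37.1 in 5-FU+Saline and 36.6 to 38.5 in Control. The filter's minimum was reached in no Control library by 3 of the B cell, 6 of the stromal and endothelial and 3 of the T and NK cell markers tested, and in no 5-FU+Saline library by 2 of the erythroid ones. Of the 13 LT-HSC markers 6 rose and 5 fell in 5-FU+Saline against Control. The part of these cells in the changes of the 8 genes was not tested.

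Levels were set side by side between genes per kb of the counted exon length, which takes in all listed exons of a gene. That length was 2740 bases for Ly6c2, 7055 for Irf8 and 1316 for Lyz2. The longest coding transcripts in GENCODE M21 have 822, 2847 and 1316 bases in the same order. The order of the genes, and the ratios between genes given above, depend on this choice of length. In 5-FU+FMT the order was Lyz2 (76.4 CPM per kb), Ly6c2 (12.0), Irf8 (6.43), Fcgr3 (3.09), Ccr2 (2.70), F13a1 (2.30), Cd14 (0.690) and Fcgr1 (0.418), and the libraries of Fcgr3, Ccr2 and F13a1 overlapped those of the neighbour in this order. In 5-FU+Saline it was Lyz2 (81.2 CPM per kb), Irf8 (6.51), Ccr2 (3.30), Ly6c2 (3.13), Fcgr3 (0.971), F13a1 (0.812), Fcgr1 (0.676) and Cd14 (0.429). There Ccr2 overlapped Ly6c2, and each of the last 4 overlapped its neighbour. In Control it was Lyz2 (65.4 CPM per kb), Ly6c2 (31.2), Fcgr3 (7.85), Irf8 (7.08), F13a1 (5.56), Ccr2 (1.71), Cd14 (1.33) and Fcgr1 (0.123), with overlaps between Fcgr3 and Irf8 and between Ccr2 and Cd14. Ly6c2 was next to Lyz2 in 5-FU+FMT and in Control, and Irf8 took that place in 5-FU+Saline. The 8 genes together made 214 to 225 CPM in 5-FU+FMT, 186 to 199 in 5-FU+Saline and 273 to 299.5 in Control.

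**Figure D4:**
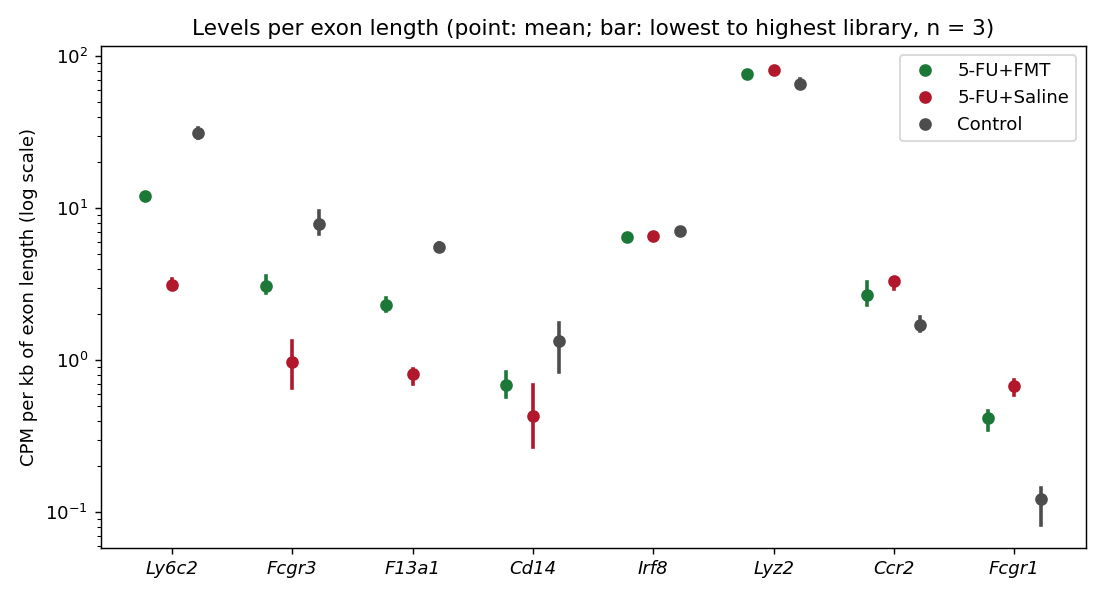
Mean CPM per kb of exon length of the 8 genes in each group on a log axis, with bars from the lowest to the highest of 3 libraries. Ly6c2, Fcgr3 and F13a1 span a wide range between groups, and Irf8 and Lyz2 a narrow one.

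The position of 5-FU+FMT between the other groups was expressed on the CPM scale, with 5-FU+Saline at 0% and Control at 100%, for the 7 genes called between those groups. It was 31.8% for Ly6c2, 30.8% for Fcgr3, 31.3% for F13a1, 28.9% for Cd14, 29.8% for Lyz2, 37.8% for Ccr2 and 46.6% for Fcgr1. The single 5-FU+FMT libraries ranged from 30.8% to 33.5% for Ly6c2 and from 2.32% to 62.3% for Ccr2. Over the 2933 genes called at 2-fold or more the median was 41.1% and the quartiles were 30.8% and 53.9%. Lyz2 (1.24-fold) and Ccr2 (1.95-fold) are under that cut and are not among the 2933. The measure was chosen with the values known and has no test.

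Patterns most like each gene were sought by Pearson's r of log2(CPM + 1) over the 9 libraries among 9582 tested genes. These had a mean of at least 10 CPM and a standard symbol. Genes with Gm, Rik, pseudogene or accession-like symbols or with none, and the 8 themselves, were left out. As the libraries fall into 3 groups far apart, a high r chiefly shares the group order, and it is given as a description. Ly6c2 was most like Mfsd2b (r = 0.9993) and Sox4 (r = 0.999), F13a1 like Dedd2 and Cd69 (r = 0.998 each), and 184 and 170 genes had r over 0.99 with Ly6c2 and with F13a1. Sox4 averaged 464 ± 13.01 CPM in 5-FU+FMT, 258 ± 6.21 in 5-FU+Saline and 709 ± 7.83 in Control. Fcgr3 was most like Kdm7a (r = 0.995) and Prg2 (r = 0.994), and Cd14 like Casp1 (r = 0.967) and Pnpla2 (r = 0.963). Fcgr1 was most like Phf19 and Vcp (r = 0.995 each), Lyz2 like Suclg2 (r = 0.994) and Osgep (r = 0.988), and Ccr2 like Stk35 (r = 0.985) and Zw10 (r = 0.982). Irf8 had the weakest match, with Fbxw9 (r = 0.939) and Sharpin (r = 0.937).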

How the data were processed

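Read counts per gene were deposited by the authors, in 9 files of 1 library each. Per the submitters' processing notes, reads were handled with Trim Galore 0.6.5, HISAT2 2.2.1, SAMtools and featureCounts 2.0.1 on mm10, and per the labels RNA was taken with Trizol and read in pairs on a NovaSeq after a NEBNext Ultra II preparation. Per the file headers, featureCounts summed read pairs over GENCODE M25 exons by gene from alignments named unique, with no option for strand, so reads of genes on opposite strands cannot be told apart where these overlap, and shared stretches of close relatives may be counted low. Symbols were given to 55141 of 56262 IDs from the reference names.

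From these counts, genes were filtered with filterByExpr (16595 left), scaled by TMM and fitted over the 3 groups together in edgeR 4.0.16 (quasi-likelihood test, with limma 3.58.1 and the data.table package, version 1.17.8, in R 4.3.3), with Benjamini-Hochberg adjustment over all tested genes in each of the 3 comparisons. Levels are counts per 1000000 (CPM) of the TMM-scaled total of tested genes, and per kb they are divided by the counted exon length. SE is the log2 fold change divided by the square root of F, and 95% intervals are normal ones around it. Total counts of 11098031 to 19270976 per library set the precision, so that genes of few counts, such as Fcgr1 and Cd14, have wide errors. Any 2 libraries of a group differed by more than counting noise (chi-square per degree of freedom from 1.94 to 2.30). The alternatives were DESeq2 1.42.0, limma-voom, other scaling and filters, fits of 2 groups, a replicate block and leaving out each library. Named genes are the 8, any gene of a list of 20 or fewer whose counts are given, and per gene the pair of most like pattern. Some genes of these lists are counted but not reported by name here. The 8 genes and the 21 lists (the 8 included) were chosen with earlier results of these data known. Plots were made in Python 3.11.15 using matplotlib 3.10.9.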

Additional observations from a re-analysis of the deposited data

How the results depend on the processing

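The log2 fold changes of the 8 genes kept their direction in all but 2 of the 426 values under the alternatives tried (DESeq2, limma-voom, RLE, upper-quartile or no scaling factors, no filter, a stricter filter of 10 CPM in 3 libraries, fits of 2 groups only, the replicate block and each library left out), and 411 of the 426 kept their side of the threshold. The exceptions were Irf8 in 5-FU+FMT against 5-FU+Saline, which passed the test in neither direction, without 5-FU+Saline replicate 3 (log2 0.0105) and without 5-FU+FMT replicate 1 (log2 0.0040), with a range of -0.055 to 0.0105 over the libraries left out. The stricter filter leaves out Fcgr1 and Cd14. Levels of the 8 genes as CPM over the plain total count moved by less than 1 SD in all 24 cases. The counts of all genes called stayed within 1.5 times in all 108 cases. Deviations of same-numbered libraries had correlations from -0.00571 to 0.0525 over 9 pairs, against -0.0509 to 0.0301 over 18 pairs of different numbers. The highest value was thus of a same-numbered pair. Values this small cannot show whether the numbers pair the libraries. With the replicate block no call of the 8 genes changed, 2982 genes were called higher and 3211 lower in 5-FU+FMT against 5-FU+Saline, and 4 genes of the Fc gamma receptor list fell there.

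Irf8 passed as a fall in 5-FU+Saline against Control with upper-quartile factors (log2 -0.19, adjusted p = 0.00718) and the stricter filter (-0.17, 0.0143). In 5-FU+FMT against Control it passed with these (-0.20, 0.00753, and -0.17, 0.0186) and without Control replicate 3 (adjusted p = 0.0401), with a range of -0.18 to -0.11 over the libraries left out. Ccr2 in 5-FU+FMT against 5-FU+Saline lost its call in DESeq2 (-0.30, adjusted p = 0.0554) and without the 4 libraries named above, with a range of -0.45 to -0.19. There 0 of the 8 genes were then called lower. Cd14 in 5-FU+FMT against Control passed with RLE factors (-0.92, 0.0488), upper-quartile factors (-0.98, 0.0346), 2 groups only (-0.90, 0.0360), without Control replicate 3 (-1.19, 0.0183) and without 5-FU+Saline replicate 3 (-0.91, 0.0439), with a range of -1.19 to -0.68. Of the 8 genes 5 were then lower in that comparison with upper-quartile factors and without Control replicate 3 (3 to 5 over the libraries left out). These p-values are edgeR's unless DESeq2 is named. The causes were not tested.

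Counts in the related lists moved most under the stricter filter, which tests fewer genes. In 5-FU+Saline against Control it left 1 transcription factor, 4 other classical, 0 non-classical, 3 Fc gamma and 3 Ly6 genes higher and 1 of the factor XIII list lower. It left, in 5-FU+FMT against 5-FU+Saline, 1 of the factor XIII list higher and 0 non-classical and 1 Fc gamma gene lower. It also left, in 5-FU+FMT against Control, 1 transcription factor, 0 non-classical and 1 CD14 gene higher and 7 other classical genes lower. Upper-quartile factors gave 14 transcription factors, 8 other classical, 5 CD14 and 8 IRF8-list genes lower and 1 CD14 and 1 Ly6 gene higher in 5-FU+FMT against Control. There DESeq2 gave 1 transcription factor higher, RLE factors 5 CD14 genes lower, 2 groups only 1 CD14 gene higher, and no filter 1 non-classical and 4 Fc gamma genes lower. Fc gamma genes lower in 5-FU+FMT against 5-FU+Saline numbered 4 with limma-voom and RLE factors and 1 with upper-quartile factors, no scaling factors and no filter. With a library left out, those lower in that comparison ranged from 1 to 3 for Fc gamma (without 5-FU+FMT replicate 2 or 5-FU+Saline replicate 2 or 3), 1 to 3 for other classical (5-FU+Saline replicate 1), 1 to 2 for non-classical and for IRF8-list genes (5-FU+Saline replicate 3), 1 to 2 for CD14 (5-FU+FMT replicate 1 or 3 or 5-FU+Saline replicate 3), 0 to 2 for the factor XIII list (5-FU+FMT replicate 3 or 5-FU+Saline replicate 2) and 2 to 4 for Ly6 (5-FU+FMT or 5-FU+Saline replicate 2). In 5-FU+FMT against Control they ranged from 1 to 2 non-classical genes higher and lower, 0 to 2 CD14 genes higher and 2 to 5 lower, and 1 to 3 Ly6 genes higher. The low counts of Fcgr1 and Cd14 limit what these libraries can show of them.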
